A study of Homo sapiens with 8 samples.

Results

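The zinc finger genes ZNF500 to ZNF799 were examined in the Raji line of Burkitt lymphoma B cells, with and without a deletion at the RGS1 and RGS13 locus. A gene was counted as a member when its symbol was ZNF followed by 3 digits in that range, with or without a final A or B, so the choice used names and no measured value. The RNA table held 195 such genes among 25377, of which 193 are annotated as protein coding and 105 lie on chromosome 19. The others are spread over the remaining 16 of 17 chromosomes that hold members. In the chromatin accessibility table, 115 of 70312 peaks were annotated as promoter peaks of 114 member genes, 69 of them on chromosome 19.

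Zinc finger proteins of this family bind DNA through a row of small zinc-holding modules, each of which reads a few bases. Many carry a KRAB domain, which binds the corepressor TRIM28, and TRIM28 in turn brings in the histone methyltransferase SETDB1, heterochromatin proteins and DNA methylation at transposable elements and other sites. The genes arose by repeated tandem duplication, and their largest clusters lie on chromosome 19. Neighbouring copies are similar in sequence, so reads of close relatives can be assigned to the wrong copy, and how shared reads were treated was not given in the sources used here.

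The knockout cells came from single clones in which Cas9 and a pair of guides had been used to delete chromosome 1 from 192515157 to 192741754 (hg38), called the RGS super-enhancer, after electroporation and puromycin selection. The control was wild-type Raji. The number of clones, and whether wild-type cells went through the same selection, were not given in the sources used here, so genotype and clone cannot be told apart. RNA-seq of polyadenylated RNA and ATAC-seq, a transposase-based assay of open chromatin, were each made from 2 wild-type and 2 knockout libraries, described by the submitters as biological replicates, and each ATAC library started from about 50000 cells. Fold changes are given as knockout over wild type. The tables do not name the direction, and it was set by a peak in the deleted interval, at 192609102 to 192609836, that the authors' deposited table puts at a log2 fold change of -11.71, with fitted counts of 622 on the side taken as wild type and 0.186 on the other. If the sign was coded the other way, every direction below turns.

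The RNA table gives a mean over 4 libraries, from which the whole reads of each library were recovered for all 195 members. Summed over the 23892 genes recovered, this gave 15820803 and 8849087 reads for wild type and 13134965 and 12688199 for the knockout. Normalised counts below are these reads divided by each library's size factor, with the deeper library first. Which library is replicate 1 or 2 in the labels is not known. All 8 B cell markers were present at 77.0 to 1052 CPM (reads scaled to library totals), summing to 2656 in wild type and 3709 in the knockout. Of these 8 markers, 3 passed as higher and 1 as lower. The T cell, myeloid, epithelial and erythroid markers listed in the table reached at most 0.435, 1.17, 0.131 and 0.0413 CPM, and COL1A1, a fibroblast marker, had 6.19 CPM and rose from 3.93 to 8.46. Of the T cell markers 1 passed as lower, at a summed level of 0.846 CPM in wild type and 0.171 in the knockout. Their part in the changes of members was not tested. No depth was known for the ATAC libraries.

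The authors' deposited table gives an adjusted p for 176 of the 195 members, and 30 of these passed the threshold of 0.05 (DESeq2 Wald test, adjusted over all genes tested), 18 higher and 12 lower in the knockout. This was 17.0% of the tested members, against 19.2% of all 17013 genes tested. The background was 9.89% for genes that were higher and 9.28% for genes that were lower. A log2 change of at least 1 in size was reached by 11 of the raised and 7 of the lowered members, against 9.02% of all genes tested in both directions together. The share of changed members was thus near the background. Of the members that passed, 4 had no read in either wild-type library and 1 had none in either knockout library. These counts were not made over all genes, so they cannot be called high or low for the members. In all 30 members that passed, the knockout libraries did not overlap the wild-type libraries. The threshold itself favours genes with such a gap, so this is no separate support for the calls. Over the 176 tested members, both knockout values lay above both wild-type values in 73 (41.5%), against 32.4% of 15528 genes with recovered reads, and below them in 42 (23.9%), against 29.5%.

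**Figure D1:**
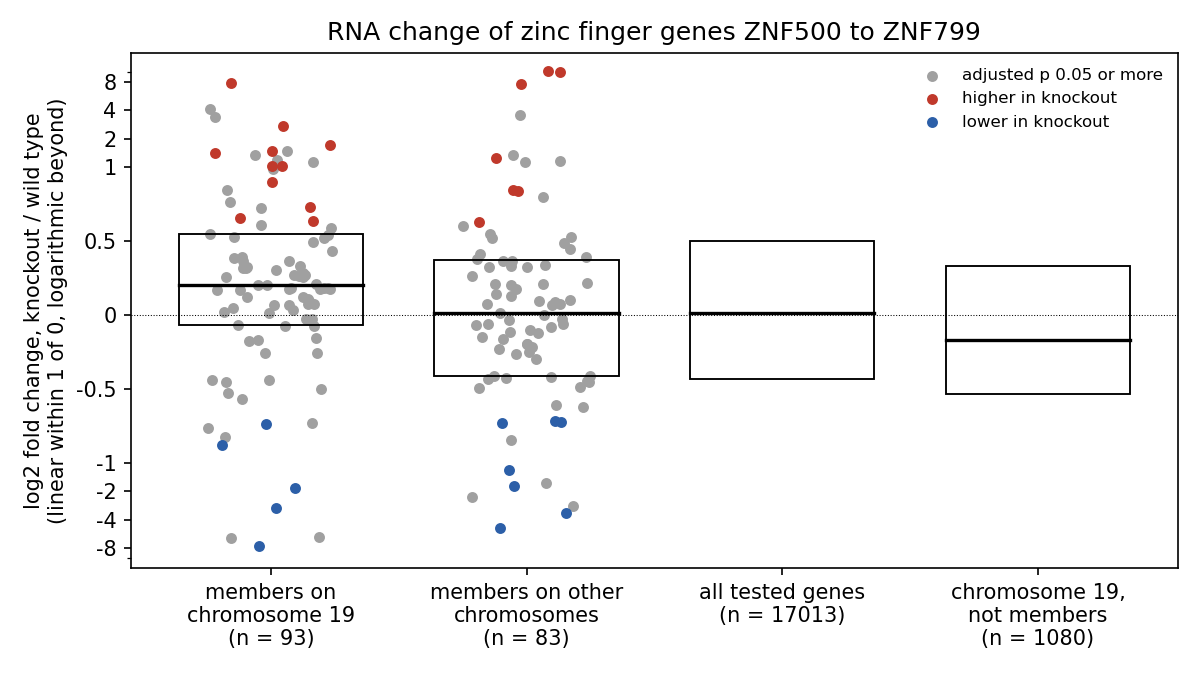
Log2 fold change (knockout over wild type, y axis, linear within 1 of 0 and logarithmic beyond) of each tested member on chromosome 19 (93 genes) and on other chromosomes (83 genes). Points are genes, coloured where the adjusted p was under 0.05. Boxes span the interquartile range and thick lines mark medians, which were 0.20, 0.01, 0.02 over all tested genes and -0.17 over the 1080 other tested genes of chromosome 19.

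The bases next to the starts of 5 members are shown because their RNA went from or to zero reads, or because they share a motif. ZNF619 and ZNF620 also rose from zero reads but are not shown, and neither holds the ATGGCGG described next in its upstream 250 bases. They are the bases just upstream of the annotated GENCODE start, read from hg38 on the gene's strand from 5′ to 3′, 250 each, except 144 for ZNF597, where an exon of NAA60 on the opposite strand begins. Capitals mark ATGGCGG, the core of the YY1 site, and CCGGAAG, the core of an ETS factor site, searched on both strands. The motifs do not overlap each other in these windows, and they were chosen after the sequences had been seen.
ZNF597, chr16:3443505-3443648, minus strand: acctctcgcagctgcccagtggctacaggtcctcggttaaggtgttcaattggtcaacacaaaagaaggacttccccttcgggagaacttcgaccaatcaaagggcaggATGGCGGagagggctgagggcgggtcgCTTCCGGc
ZNF615, chr19:52008231-52008480, minus strand: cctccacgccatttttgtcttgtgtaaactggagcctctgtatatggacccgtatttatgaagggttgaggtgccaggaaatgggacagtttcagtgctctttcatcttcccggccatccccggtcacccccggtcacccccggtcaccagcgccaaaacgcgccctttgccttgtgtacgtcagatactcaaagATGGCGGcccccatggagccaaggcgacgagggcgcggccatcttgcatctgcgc
ZNF585A, chr19:37172742-37172991, minus strand: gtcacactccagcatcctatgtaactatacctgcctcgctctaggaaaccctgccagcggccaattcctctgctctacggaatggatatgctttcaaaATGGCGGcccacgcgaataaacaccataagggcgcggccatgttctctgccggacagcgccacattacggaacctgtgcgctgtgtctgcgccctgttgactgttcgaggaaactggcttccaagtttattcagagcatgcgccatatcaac
ZNF770, chr15:34988288-34988537, minus strand: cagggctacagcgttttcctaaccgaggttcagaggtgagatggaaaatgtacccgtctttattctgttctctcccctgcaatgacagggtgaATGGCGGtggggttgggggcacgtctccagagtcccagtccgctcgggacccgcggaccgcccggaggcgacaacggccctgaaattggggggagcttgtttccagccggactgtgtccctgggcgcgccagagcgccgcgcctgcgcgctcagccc
ZNF530, chr19:57599635-57599884, plus strand: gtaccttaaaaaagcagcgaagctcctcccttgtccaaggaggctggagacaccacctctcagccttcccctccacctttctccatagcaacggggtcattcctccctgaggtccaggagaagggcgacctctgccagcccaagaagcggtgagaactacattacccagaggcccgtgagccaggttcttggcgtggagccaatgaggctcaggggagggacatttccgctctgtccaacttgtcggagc
ATGGCGG was found in the 250 bases upstream of 9 of the 176 tested members (5.11%), against 3.99% of all 17013 genes tested. It was present in 4 of the 18 raised members (ZNF597, ZNF615, ZNF585A and ZNF770, all shown above), in 0 of the 12 lowered members and in 5 of the 146 that did not pass. CCGGAAG was found in 37 members (21.0%), against 10.9% of all genes tested, with 20 of 93 on chromosome 19 and 17 of 83 elsewhere. It was present in 4 of 18 raised, 3 of 12 lowered and 30 of 146 other members. These splits by direction were not made over all raised and all lowered genes. Since both motifs were chosen after sequences of these members had been seen, no conclusion is drawn from the splits. The dinucleotide CG occurred 8 times in the window of ZNF530 and 15 to 21 times in those of ZNF615, ZNF585A and ZNF770, against a median of 15 over the members. In ZNF597 it occurred 13 times in the 250 bases and 8 times in the 144 shown. A match describes the letters and is not evidence that a factor binds.

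ZNF619, on chromosome 3 at 40477113 to 40491053, had the largest increase. Its normalised count was 0 in both wild-type libraries, while the knockout libraries had 265 and 215. Against a floor of 3 reads over both wild-type libraries, this was at least 162-fold higher (DESeq2 Wald test of the authors' deposited table: log2 fold change 10.30, SE 1.51, adjusted p 5.98e-10). ZNF620 starts 18 bp further along the same strand, at 40477131, and the span of ZNF619 beyond that base lies within it. Its counts were 0 and 0 in wild type and 30.0 and 44.7 in the knockout, at least 25.1-fold higher, and reads in the shared stretch cannot be assigned to one gene with certainty. A peak at 40476964 to 40477553 covers both starts. It is annotated to ZNF619 but not as a promoter, and the authors' deposited table gives it a log2 fold change of 4.47 (SE 0.65, DESeq2 Wald adjusted p 1.72e-10), from a fitted count of 3.41 to 75.5.

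ZNF597, an imprinted gene on chromosome 16 at 3432414 to 3443504 that shares its start region with NAA60 on the opposite strand, also rose from zero reads. Counts were 0 and 0 in wild type and 166 and 237 in the knockout, at least 135-fold higher (DESeq2 Wald test of the authors' deposited table: log2 fold change 10.05, SE 1.53, adjusted p 2.51e-09). The peak over this start, at 3443249 to 3444385, is named for NAA60 and rose by 6.93 log2 units (SE 0.53) in the authors' deposited table. The median ATAC change of non-promoter peaks within 2 Mb of ZNF597 was 1.06, so accessibility was higher across this part of the chromosome as well, and its part in the RNA change was not tested. ZNF615, on chromosome 19 at 51991332 to 52008230, had 0 and 0 in wild type and 39.4 and 43.7 in the knockout, at least 28.0-fold higher (DESeq2 Wald test of the authors' deposited table: adjusted p 0.000205). It had no peak within 500 bp of its start.

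ZNF585A, on chromosome 19 at 37106734 to 37172741, was low but present in wild type, at 16.9 and 23.7, and reached 148 and 121 in the knockout. This was a 6.74-fold increase (DESeq2 Wald test of the authors' deposited table: log2 2.75, SE 0.59, adjusted p 5.12e-05). Its close copy ZNF585B, next to it at 37181579 to 37218153, rose 1.58-fold, from 532 and 439 to 753 and 782. The promoter peak of ZNF585A at 37172410 to 37173168 rose 2.11-fold, while that of ZNF585B did not pass (log2 0.12 by the authors' deposited table). Reads of the pair may be exchanged, so their separate sizes are uncertain.

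The other raised members changed by 1.55-fold to 3.28-fold. ZNF506 rose from 690 and 471 to 1612 and 1621, a log2 fold change of 1.47 (SE 0.23) in the authors' deposited table. ZNF737 rose from 398 and 299 to 720 and 714. ZNF587B rose from 614 and 576 to 1170 and 1271, and the adjacent ZNF587 from 1203 and 1098 to 2201 and 2100. These copies overlap the same other annotated gene, so their reads are not fully separate. ZNF582 rose from 65.2 and 41.8 to 152 and 139. ZNF709 had 82.9 in one wild-type library and 16.7 in the other, against 166 and 168 in the knockout, so by ratio the wild-type pair differed more than the deeper wild-type library differed from the knockout. ZNF518A, whose paralogue ZNF518B is known as a partner of the histone methyltransferase EHMT2, rose from 1886 and 1509 to 3142 and 2929. ZNF708 rose from 373 and 331 to 646 and 522. ZNF605, on chromosome 12, rose from 639 and 625 to 976 and 979, with both pairs close together. ZNF780B rose from 530 and 432 to 789 and 714, and its neighbour and copy ZNF780A, at 309 and 232 against 371 and 414, did not pass. ZNF596 and ZNF770 are given below.

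ZNF530, on chromosome 19 at 57599885 to 57612722, had the largest decrease. Its counts were 34.5 and 34.9 in wild type and 0 in both knockout libraries, at least 24.2-fold lower (DESeq2 Wald test of the authors' deposited table: adjusted p 0.000486). Its promoter peak at 57599488 to 57600291 went from a fitted count of 116 to 5.00, a log2 fold change of -4.54 (SE 0.55) by the authors' deposited table. ZNF544, on the same arm at 58228594 to 58277495, fell from 759 and 799 to 117 and 78.7 (DESeq2 Wald test of the authors' deposited table: log2 fold change -2.99, SE 0.30, adjusted p 1.17e-21). Its promoter peak was at -2.26 (SE 0.26) by the same authors' deposited table. Both genes thus lost RNA and promoter accessibility together, ZNF530 to no detected read and ZNF544 to a level that was still measured.

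ZNF521, a cofactor of early blood and B cell progenitors that opposes the B cell factor EBF1, lies on chromosome 18 at 25061924 to 25352190. It fell 10.4-fold, from 320 and 332 to 39.4 and 23.3 (DESeq2 Wald test of the authors' deposited table: log2 fold change -3.38, SE 0.43, adjusted p 2.19e-13). Its promoter peak fell 2.08-fold. ZNF792 fell from 95.2 and 75.3 to 28.2 and 19.4, and its promoter peak fell 2.89-fold. ZNF778 fell from 1613 and 1449 to 709 and 628, with non-promoter peaks within 2 Mb at a median log2 change of -0.36. Smaller decreases, of 1.64-fold to 1.85-fold, passed for ZNF570, ZNF581, ZNF623, ZNF689 and ZNF768. ZNF570 fell from 320 and 347 to 164 and 197, and ZNF581 from 1144 and 1331 to 715 and 768. ZNF689 had 681 and 1004 in wild type and 487 and 530 in the knockout. In ZNF768, its neighbour on chromosome 16, the wild-type libraries were at 1229 and 2123 and the knockout libraries at 1015 and 998.

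**Figure D2:**
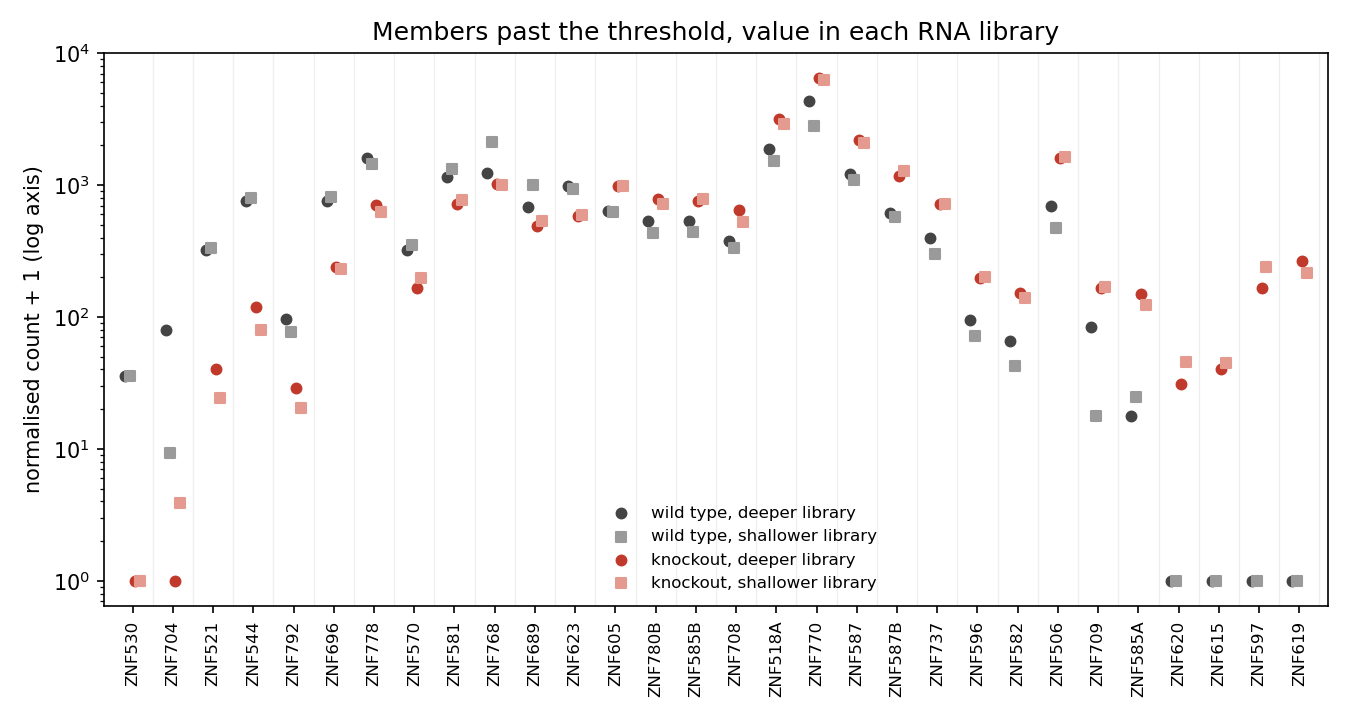
Normalised count plus 1 (y axis, log scale) of the 30 members past the threshold in each of the 4 RNA libraries, ordered by fold change. Each point is 1 library. ZNF619, ZNF597, ZNF615 and ZNF620 sit at 0 counts in both wild-type libraries and ZNF530 in both knockout libraries, and the genotypes do not overlap in any gene shown. Genes were chosen by the threshold, which itself favours such a gap.

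Chromosome 8 held 8 tested members, and 4 passed, where 38.5% of all 572 tested genes of that chromosome passed. ZNF704 had 79.0 and 8.37 in wild type and 0 and 2.91 in the knockout, so its decrease rested mainly on the deeper wild-type library. ZNF696 fell from 757 and 809 to 237 and 229, and ZNF623 from 987 and 940 to 583 and 590. Non-promoter peaks within 2 Mb of these genes had median log2 changes of -0.82 and -0.84. With that local median subtracted, the log2 fold change of ZNF696 was -0.93 and that of ZNF623 was 0.13, so the direction of ZNF623 turned. ZNF596, on the other arm, rose from 93.6 and 71.1 to 197 and 200 where the local median was 0.71, and its centred value was 0.55. The part of local accessibility in these RNA changes was not tested.

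Among members that did not pass, the authors' deposited table puts 8 beyond a log2 fold change of 1.5 in size. ZNF625 had 25.3 and 1.39 in wild type and 0 in both knockout libraries (DESeq2 Wald test of the authors' deposited table: adjusted p 0.0620). ZNF649 had 18.4 and 5.58 in wild type and 0 in both knockout libraries (adjusted p 0.0655). ZNF629 had 4.60 and 0 in wild type and 29.1 and 30.1 in the knockout (adjusted p 0.0560). These rested on few reads, and ZNF517, ZNF518B, ZNF541, ZNF595 and ZNF781 were the others. ZNF517, on chromosome 8, had 59.1 and 75.3 in wild type and 19.7 and 23.3 in the knockout, where the local median of accessibility was -0.81. ZNF518B had 15.3 and 33.5 in wild type and 1.88 and 4.86 in the knockout. The 19 members not tested had means of at most 4.28 and at most 15 reads in any library, and 12 of them lie on chromosome 19.

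The 5 members with the highest mean normalised count were ZNF664, ZNF638, ZNF644, ZNF770 and ZNF655. ZNF638 is a nuclear RNA-binding protein known to silence retroviral DNA with the HUSH complex. It had 7151 and 5717 in wild type and 8280 and 8497 in the knockout, and did not pass (DESeq2 Wald test of the authors' deposited table: log2 fold change 0.38, adjusted p 0.0902). ZNF644, a partner of EHMT2 and EHMT1, had 4895 and 4059 against 5808 and 5726 and did not pass (0.36, adjusted p 0.108, in the same authors' deposited table). ZNF664 had 8047 and 7011 against 7983 and 8114, and ZNF655 had 4496 and 5167 against 4835 and 4634, so the genotypes overlapped in both. ZNF770 was the 1 of these 5 to pass, rising from 4303 and 2798 to 6471 and 6302 (DESeq2 Wald test of the authors' deposited table: log2 fold change 0.85, SE 0.20, adjusted p 0.000384).

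Divided by exon length, levels of tested members ran from 1.06 to 2032 mean normalised counts per kb, with a median of 71.9. The highest were ZNF593 at 2032, ZNF664 at 1229, ZNF770 at 914, ZNF598 at 812, ZNF644 at 674 and ZNF622 at 667 counts per kb. ZNF593 and ZNF622 act in ribosome assembly, and ZNF598 is the ubiquitin ligase that marks collided ribosomes. None of these 3 passed, and the authors' deposited table gives log2 fold changes of -0.41, 0.10 and 0.07. ZNF532, ZNF592 and ZNF687, which form a chromatin complex with ZMYND8, had -0.42, -0.42 and -0.06 there and did not pass. ZNF652, a transcriptional repressor that works with CBFA2T3, had 3643 and 3531 against 2972 and 2853 and did not pass. ZNF711, an X-linked gene tied to intellectual disability, had 2219 and 1742 against 2181 and 1995. ZNF746, which represses PPARGC1A, had 906 and 763 against 968 and 967. ZNF609, known for its circular RNA, had 2929 and 4137 against 3090 and 2775 as a gene, and the circular form was not measured. None of these 4 passed, and all were well measured in both genotypes. The members switched between zero and measured reads were near the low end of this scale, at 2.85 counts per kb for ZNF530, 4.27 for ZNF615, 4.94 for ZNF620, 18.4 for ZNF597 and 22.5 for ZNF619, as means over both genotypes.

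On chromosome 19, 16 of 93 tested members passed, 11 higher and 5 lower (17.2%), and elsewhere 14 of 83, 7 higher and 7 lower (16.9%). The background was 17.2% of the 1173 tested genes on chromosome 19, with 62 higher and 140 lower, and 19.3% of those on other chromosomes. The median log2 fold change was 0.20 for members on chromosome 19 and 0.01 for the others, a difference of 0.19, against -0.17 for chromosome 19 genes that are not members. Of the 93, 67 had a positive fold change, as had 43 of the 83. The 100 other tested genes named ZNF on chromosome 19 had a median of 0.29, with 18 higher and 6 lower. Knockout values lay above both wild-type values in 44 of the 93 and below them in 18, against 25.4% and 34.7% of 1091 recovered genes of chromosome 19. They did so in 29 and 24 of the 83, against 33% and 29.1% of recovered genes elsewhere. Genes are not replicates, so these sets were described and not tested against each other.

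Chromosome 19 members were split into 15 runs where gaps between neighbours exceeded 1 Mb. The run from 36.2 to 37.8 Mb held 16 tested members, of which 14 had positive fold changes, with a median of 0.81, against 0.17 for the 22 other tested genes inside it. In this run 2 members passed as higher, ZNF585A and ZNF585B, and 1 as lower, ZNF570, and of the other genes 3 and 2. ZNF566, ZNF569, ZNF571 and ZNF529 did not pass (DESeq2 Wald test of the authors' deposited table: log2 0.85, 0.99, 1.48 and 1.13, adjusted p 0.0983, 0.0522, 0.0783 and 0.0607). Between 19.8 and 23.9 Mb, 12 tested members had a median of 0.31, with ZNF506, ZNF708 and ZNF737 higher, against 0.37 for the 36 other tested genes there, of which 6 were higher and 4 lower. At the end of the long arm, from 55.5 to 58.4 Mb, 25 tested members had a median of -0.07, with 3 higher (ZNF582, ZNF587, ZNF587B) and 3 lower (ZNF530, ZNF544, ZNF581). The 57 other tested genes there had a median of 0.01, with 5 higher and 4 lower. Changes in opposite directions thus lay side by side in the same run.

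**Figure D3:**
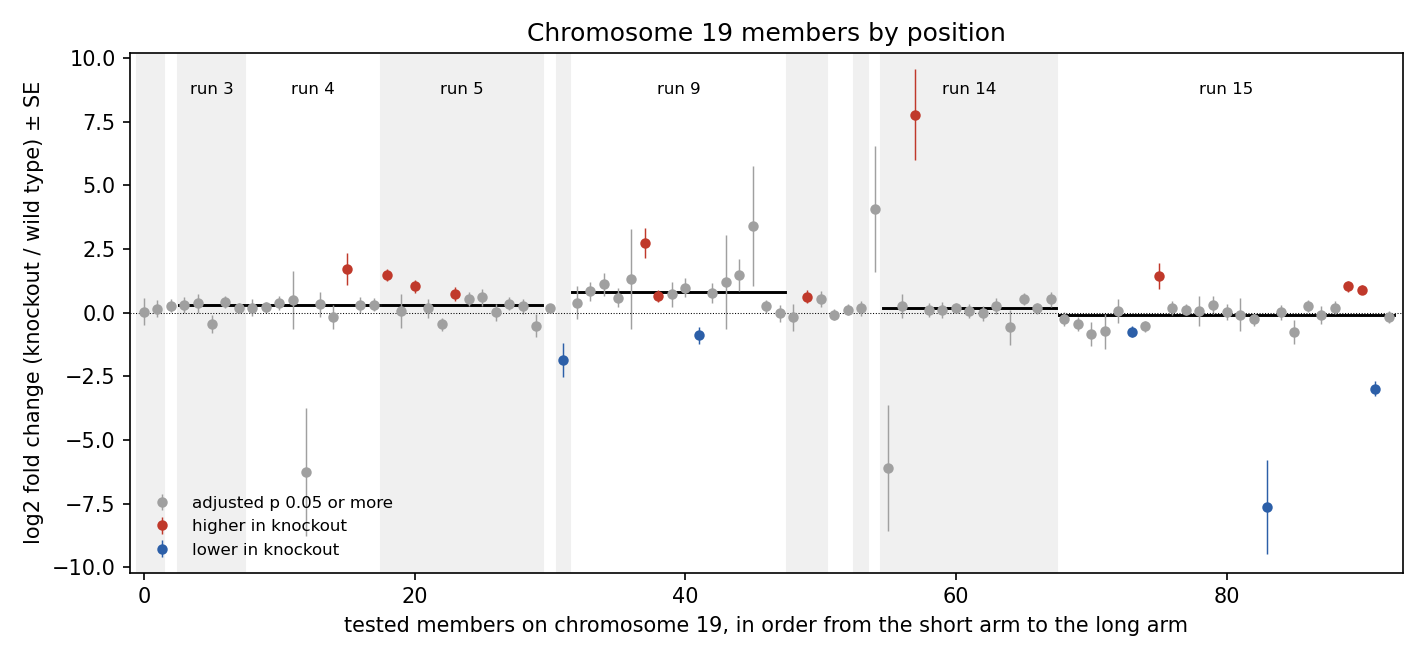
Log2 fold change (knockout over wild type, y axis) with its SE for the 93 tested members of chromosome 19 in order along the chromosome (x axis, rank). Shading alternates between runs separated by over 1 Mb, and black lines give the median of each run with at least 5 tested members. Members of run 9 lie mostly above 0, at a median of 0.81, while run 15 holds members past the threshold in both directions.

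The wild-type libraries differed from each other more than the knockout libraries did. Over 141 members with a mean of at least 100, the median absolute log2 difference was 0.34 between the wild-type libraries and 0.11 between the knockout libraries, against 0.29 and 0.08 over 9190 genes. Members on chromosome 19 were lower in the shallower wild-type library than in the deeper one by a median of 0.29 log2 units (log2 difference -0.29), and 52 of 73 had the lower value there. The same difference was -0.02 for members elsewhere and 0.24 for the other chromosome 19 genes. Set against the deeper wild-type library alone, the knockout was higher by a median of 0.11 for chromosome 19 members and 0.06 for the others. Against the shallower one alone it was higher by 0.38 and 0.08. The difference between the chromosome 19 members and the others was therefore 0.06 against the deeper wild-type library and 0.31 against the shallower, over all tested members, and moved over 1.5 times with either left out.

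This difference between the wild-type libraries ran with the GC content of transcripts. Members had a median GC content of 42.8% in their longest transcript, with 42.0% on chromosome 19 and 46.2% elsewhere, against 58.5% for other chromosome 19 genes and 47.5% over all. Across the 141 members, GC content and the wild-type library difference had a Pearson correlation of 0.63 and a Spearman correlation of 0.64, given as a description over genes that share libraries. For the deposited fold change, the Spearman correlation with GC content was -0.54 over the members and -0.37 over all 9190 genes. In the lowest of 4 equal GC classes of genes, 57 members had a median log2 fold change of 0.38 and all genes 0.25. In the highest class, 28 members had -0.21 and all genes -0.32. With the trend on GC content removed from all genes, 23 members passed in place of 30, 19 of them in common. The calls of ZNF581, ZNF582, ZNF585B, ZNF596, ZNF605, ZNF689, ZNF708, ZNF709, ZNF768, ZNF780B and ZNF792 ended. Several of these kept folds close to the deposited ones, such as ZNF792 at -1.74, ZNF709 at 1.51, ZNF582 at 1.32 and ZNF596 at 1.10, and the part of GC content in any of them was not tested. The median of chromosome 19 members was then 0.17, against 0.04 for members elsewhere. For the chromosome 19 genes that are not members it moved from -0.17 to 0.05.

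**Figure D4:**
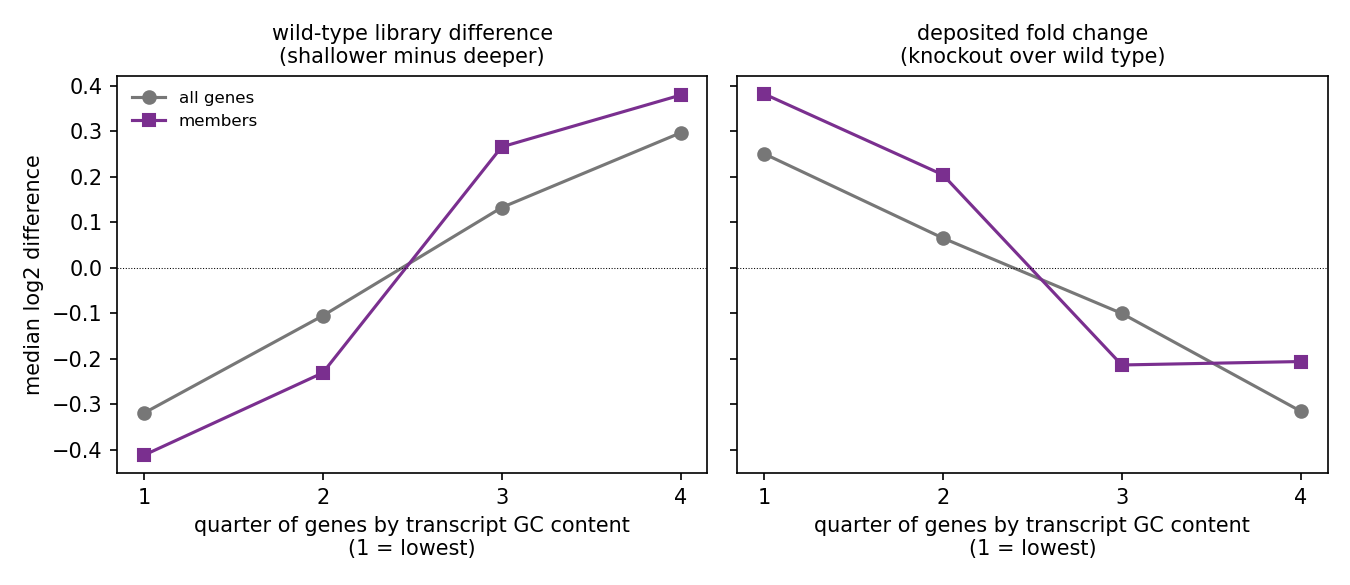
Median log2 difference (y axis) by class of genes in transcript GC content (x axis, 4 equal classes, 1 lowest), for 9190 genes and 141 members with a mean of at least 100. On the left, the shallower minus the deeper wild-type library, which runs from -0.41 to 0.38 in the members. On the right, the deposited fold change, which runs the other way, from 0.38 to -0.21.

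Limma on log2 of the recovered normalised counts plus 1, added after the data were seen, called 24 members, 15 higher and 9 lower, against 12.9% of 15528 genes. Of the 30 members past the Wald threshold, 23 were among them, and ZNF529 was called by limma alone. The calls of ZNF585B, ZNF689, ZNF704, ZNF708, ZNF709, ZNF768 and ZNF780B were not met by limma. With the deeper or the shallower knockout library left out, limma called 0 members and 0 of 15528 genes, with 17 and 21 members and 1606 and 1630 genes at an unadjusted p under 0.05.

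Promoter accessibility of the members mostly fell where it changed. Of the 115 member promoter peaks, 44 passed (38.3%), 10 higher and 34 lower (DESeq2 Wald test, adjusted over all peaks, in the authors' deposited table). The background over all 8420 promoter peaks was 34.2%, with 14.2% higher and 20% lower. On chromosome 19, 24 of 69 passed (6 higher, 18 lower), against 27.6% of all promoter peaks there. Elsewhere 20 of 46 passed (4 higher, 16 lower), against 34.8%. Median log2 fold changes were -0.08 and -0.10, against -0.06 for all promoter peaks. Most falls were small: 9 of the 34 lowered peaks reached a log2 change of 1 in size, against 216 of 1681 over all promoter peaks. Of the 10 raised peaks 2 reached it, against 324 of 1198. Large changes thus took a larger share of the falls and a smaller share of the rises than over all promoter peaks, which was not tested.

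The largest falls in promoter accessibility past the threshold were at ZNF530, at a pair of peaks of ZNF572, and at ZNF544, ZNF792 and ZNF665. The ZNF572 peaks were at -4.12 and -1.59 log2 units by the authors' deposited table, where the local median was -0.55, while its RNA overlapped between genotypes at 201 and 128 against 147 and 137. The promoter peak of ZNF665 fell 2.74-fold, and its RNA was at 62.9 and 60.0 against 51.6 and 31.1 and did not pass. The largest rises past the threshold were at ZNF781, ZNF585A, ZNF598, ZNF500, ZNF596 and ZNF780B. ZNF781 rose from a fitted count of 6.37 to 44.7 (DESeq2 Wald test of the authors' deposited table: log2 fold change 2.81, SE 0.59, adjusted p 1.53e-05), with RNA of 1.53 and 0 in wild type and 11.3 and 6.80 in the knockout. The peaks of ZNF598 and ZNF500 lie on chromosome 16 where the local medians were 1.14 and 1.10, above their own 0.89 and 0.78 in the authors' deposited table. With the local median subtracted they became -0.25 and -0.32, and those of ZNF596, ZNF696 and ZNF623 became -0.09, 0.05 and 0.14, so these 5 directions turned.

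Paired by name, RNA and promoter peak both passed for 14 member genes, in the same direction for 13 (92.9%), against 766 of 869 (88.1%) over all genes. Both rose for ZNF585A, ZNF596, ZNF708 and ZNF780B, and both fell for ZNF521, ZNF530, ZNF544, ZNF623, ZNF696, ZNF768, ZNF778 and ZNF792. The ninth lowered pair is ZNF570, whose named peak lies at -83 bp from a start of that gene. A different peak, over its GENCODE start, did not pass. With the local median subtracted, the RNA and peak of ZNF623 and the peak of ZNF696 turned, and the peaks of ZNF596 and ZNF778 no longer passed. ZNF581 was the exception, whose RNA was at -0.74 and promoter peak at 0.34 by the authors' deposited table. Its annotated start, upstream of that peak, is covered by another peak named for ZNF580, which had -0.38 there. Of 11 lowered genes with a promoter peak 9 had a lowered peak, against 384 of 852 (45.1%) over all genes. Of 11 raised genes with one 4 had a raised peak, against 382 of 843 (45.3%). For 24 genes the promoter peak fell while the RNA did not pass. Apart from ZNF572, ZNF665 and ZNF517, the largest of these falls were at ZNF726, ZNF682, ZNF626 and ZNF559 on chromosome 19. The ZNF682 peak went from a fitted count of 625 to 352, while its RNA was at 86.7 and 33.5 in wild type and 75.1 and 52.4 in the knockout. The ZNF626 peak went from 613 to 370, while its RNA was at 243 and 152 against 224 and 222. In both, the knockout RNA values lay between the wild-type values. For 5 genes the peak rose while the RNA did not pass (ZNF500, ZNF598, ZNF695, ZNF763 and ZNF781). Neither count, of 24 or of 5, was made over all genes, so neither can be called high or low for the members.

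**Figure D5:**
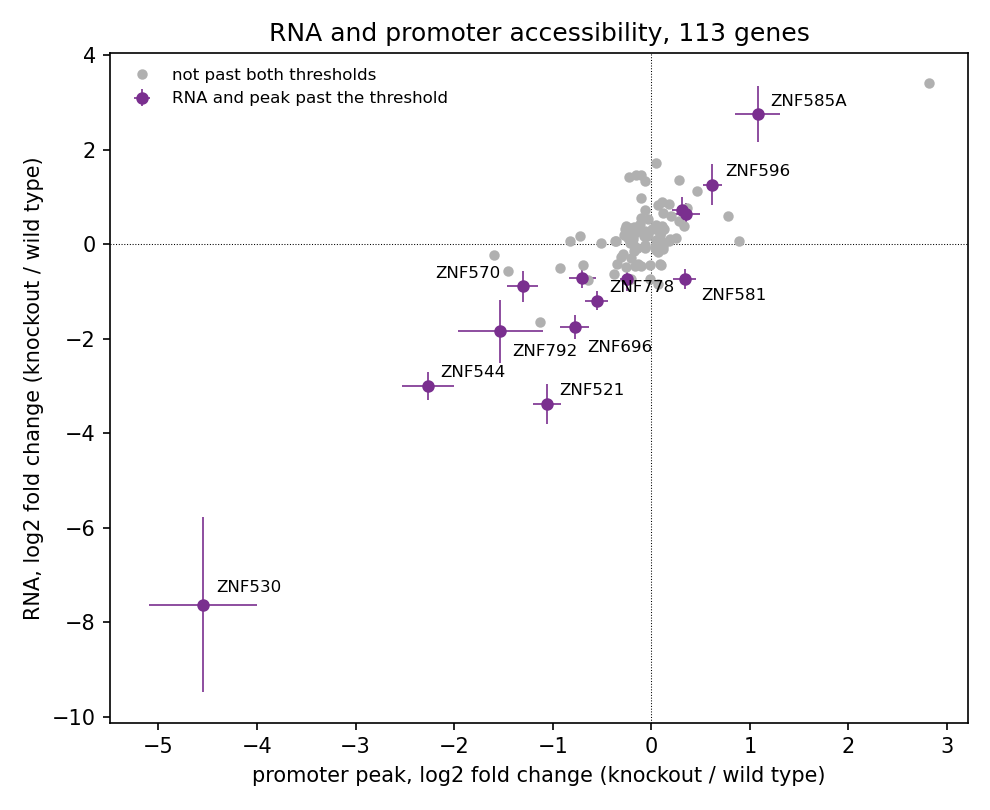
RNA log2 fold change (y axis) against promoter peak log2 fold change (x axis), knockout over wild type, for 113 tested members with a promoter peak of their name (the nearest one where a gene has several). Purple points with SE bars passed in both assays, and grey points did not. ZNF530, ZNF544 and ZNF792 lie low on both axes, ZNF585A high on both, and ZNF581 is lower in RNA with a higher peak.

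Names of peaks and GENCODE starts do not always point to the same gene. Of 151 members with a peak within 500 bp of their outermost GENCODE start, 23 had one that carries another gene's name. Some of these have a promoter peak of their own name at another start, such as ZNF627 (22 bp from it), ZNF775 (-42 bp) and ZNF584 (-262 bp). The 23 are thus not a count of misnamed peaks, and no such count was made over all genes. The peak that fell by 1.30 in the authors' deposited table is named for ZNF570 and lies at -83 bp from a start of that gene. It also covers the GENCODE start of ZNF569, on the opposite strand. RNA of ZNF569 was at 340 and 135 in wild type and 447 and 503 in the knockout. The peak over the GENCODE start of ZNF570 is named for ZNF569, at 104 bp from a start of that gene. It had -0.10 in the authors' deposited table. Which start each gene used was not tested, so neither peak can be given to 1 gene alone. At the start of ZNF587B a peak named for ZNF552 rose by 0.82 in the authors' deposited table (adjusted p 1.72e-11, DESeq2 Wald test), alongside its RNA. At ZNF605 a peak of its own name that is not annotated as a promoter had -0.47 in the authors' deposited table (adjusted p 0.00216, DESeq2 Wald test), while its RNA rose 1.55-fold. Of the 30 changed members 26 overlap another annotated gene, as do 145 of all 195. The library kit marks strand, but whether counting used it was not given in the sources used here.

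The machinery that KRAB zinc finger proteins work with was described from a list of 35 genes, of which 34 were tested. Of these, 2 rose, 5 fell and 27 did not pass, with a median log2 fold change of -0.06. The share that passed, 20.6%, is near the 19.2% of all genes tested. CBX5, a heterochromatin protein, was among those that rose and had 0.69 in the authors' deposited table. CHD3, a NuRD remodeller, had -0.94, EHMT2 -0.88, the DNA methyltransferases DNMT3B and DNMT1 -1.01 and -0.51, and the histone chaperone DAXX -0.64 in the authors' deposited table. TRIM28 had 0.07 (SE 0.16, adjusted p 0.849) and SETDB1 -0.23 (SE 0.19, adjusted p 0.472), by the DESeq2 Wald test of the authors' deposited table. Against a change of 1.5-fold, none of these 7 calls held.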

How the data were processed

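The authors deposited RNA-seq and ATAC-seq of wild-type and knockout Raji cells (2 libraries each) as DESeq2 results. The submitters' processing notes name Trim Galore, Trimmomatic, cutadapt, STAR, featureCounts, Bowtie2, HOMER and DESeq2 on GRCh38 or hg38, while the peak caller and all versions were not given in the sources used here. The deposited signal, per the file headers, is the mean over 4 libraries of counts divided by size factors, and the authors give log2 fold changes with SE, Wald scores and p-values. The other deposited unit is the distance of a peak to a start in bp, which the authors took from HOMER. The edgeR test foreseen was not run, since no column holds counts per library, and the deposited Wald test was used, with adjusted p under 0.05.

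Reads per library were recovered as the whole numbers whose weighted sum gives the deposited mean to its last printed digit. They were then checked by refitting the fold change for genes with a mean up to 5000 (172 members were settled by both, and their largest gap was 2.93e-05 in log2). Of 17013 tested genes 15528 were recovered. In a simulation 296 of 296 genes came back exactly, but genes with no read in a genotype were left out of it. Such genes, among them ZNF619, ZNF597, ZNF615, ZNF620 and ZNF530, were settled by the mean alone, without the check on the fold change. The size factors were 1.30 and 0.717 in wild type and 1.07 and 1.03 in the knockout. Limma 3.58.1 (R 4.3.3, trend on the mean, pseudocount 1), tested on simulated data, found 198 of 200 genes changed by 2 log2 units among 15528, with 9 false calls. That simulation gave all libraries the same spread, unlike the recovered ones, so it does not give the error rate in these data.

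Gene positions came from GENCODE release 44. Local centring subtracts the median of at least 10 non-promoter peaks within 2 Mb. Named members were those past the threshold with a log2 change of at least 1, up to 12 in each direction, the 5 most abundant, up to 8 with RNA and peak both past the threshold, those in opposite directions, and the 6 largest peak changes each way. Other members were named after their values were seen. The members and lists were chosen with earlier results of these data known. Replicates are described as biological, and p-values measure only the spread between these libraries. One cofactor gene and one upstream sequence are not reported here.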

Additional observations from a re-analysis of the deposited data

How the results depend on the processing

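Of the 30 members past the threshold, 19 passed at an adjusted p of 0.01, 10 a test against a 1.5-fold change and 7 with Wald statistics divided by their robust spread. The 10 were ZNF506, ZNF521, ZNF530, ZNF544, ZNF585A, ZNF597, ZNF615, ZNF619, ZNF620 and ZNF696. Over all genes tested the share went from 19.2% to 12.7%, 3.94% and 3.94%. Without the filter on low means 25 members passed, with a mean of at least 100 it was 30, and with local, chromosome or GC centring it was 32, 34 and 23, against 11.5%, 28.8%, 17.5%, 18.3% and 16.4% of all genes. Of the 30 in the main test, 23 were among those with a mean of at least 100, as 7 have lower means. With local centring 25 of them were kept, and with chromosome centring 27. Calls lost by centring were those of ZNF570, ZNF596, ZNF605, ZNF623 and ZNF689 (local) and of ZNF570, ZNF596 and ZNF792 (chromosome). For promoter peaks, 10 of 44 held against 1.5-fold and 7 with scaled statistics, against 5.99% and 5.68% of all promoter peaks, while the other settings gave 34 to 43. Of the cofactor calls, 0 held against 1.5-fold, where 671 of all genes tested were called. Local centring turned ZNF623 to 0.13 and ZNF655, which had not passed, to 0.061, and chromosome centring turned ZNF655 to 0.0066. Local centring also turned the promoter peaks of ZNF598 (-0.25), ZNF500 (-0.32), ZNF596 (-0.095), ZNF696 (0.048) and ZNF623 (0.14), and 9 others, ZNF778 among them (-0.19, adjusted p 0.234 by the Wald test), no longer passed. The difference between chromosome 19 members and the others was 0.13 to 0.32 under centring or a minimum mean, and 0.06 to 0.31 with each of the 4 libraries left out in turn. Limma called 0 to 85 members with 1 library left out, assuming that the lone library varies as the other genotype does. It called 85 without the deeper and 39 without the shallower wild-type library, and 0 without either knockout library, while 44.6%, 21% and 0 of 15528 genes were called. Limma, the removal of the GC trend and the omission of libraries were chosen after seeing the data. The causes were not tested. No paired analysis was possible because the libraries recovered carry no replicate number. Leaving out ATAC libraries was not run, as their values are not in the table used here.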
